A study of Mus musculus with 6 samples.

Results

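Markers of macrophages, other leukocytes and osteoclasts were followed in RNA of mouse chondrocytes, the cells of cartilage. The list holds 39 genes chosen by symbol, 31 for macrophages and leukocytes and 8 for osteoclasts. Of these, 38 have a row among the 26969 genes of the table, and the expression of Cd163 is not analysed here. Poly(A) RNA of wild-type chondrocytes was sequenced in 6 libraries, 3 described as mAC and 3 described as mAC_Mito, in a study of chondrocytes given transplanted mitochondria, for which the title names osteocytes. The extraction protocol speaks of an adipose type although the source is given as chondrocytes. No age, culture stage or dose is given in the sources used here, and no label ties the replicates to separate cultures or animals. P-values thus reflect variation among these libraries only, part or all of which may be technical. The labels disagree on which group is treated: the libraries described as mAC_Mito are titled and marked as vehicle, and those described as mAC as mitochondria. Each difference below is therefore mAC_Mito minus mAC, and none is given as an effect of mitochondria.

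Macrophages arise from myeloid progenitors under the transcription factor PU.1, the product of Spi1, and depend on signalling through the receptor Csf1r. Osteoclasts, the cells that resorb bone and calcified cartilage, form from the same lineage when CSF1 and RANKL act together, which induces Nfatc1, then the fusion proteins encoded by Dcstamp and Ocstamp, then the enzymes that dissolve bone mineral and matrix. Macrophages and osteoclasts lie close to cartilage in joints and growth plates, and lysosomal proteases of the same lists are also made outside the blood lineage. In bulk RNA, fewer cells of a type and less RNA per cell cannot be told apart.

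Total counts were 59116068 to 68378213 per library, so 3 counts, taken as the floor of detection, correspond to 0.0438 to 0.0527 CPM (the count scaled to library size). That floor covers counting error only and is optimistic here: among protein-coding genes with a mean of 15 to 25 counts in the other 5 libraries, 5.52% of 2878 values were listed at 0. A member at 0 is therefore described as listed at 0, with no fold. The 12 chondrocyte genes examined were each at 1 FPKM or more on average (fragments per kilobase of gene model, scaled to library depth), with a median of 85.6 FPKM and Col2a1, the main cartilage collagen, at 1254 FPKM. Across all 17645 genes tested, 2 (0.0113%) had an adjusted p under 0.05 in edgeR's quasi-likelihood test, and neither was a member.

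Most markers were present at low levels, 7 of 38 were listed at 0 in at least 1 library, and none differed between the groups at that threshold. Only Lyz2 (lysozyme) and Ctsk (cathepsin K) averaged 10 FPKM or more. Another 15 members lay between 1 and 10 FPKM, 13 between 0.1 and 1 FPKM and 8 below 0.1 FPKM. The pattern that recurred was in 1 library: 16 of the 29 tested macrophage and leukocyte genes (55.2%) had their highest CPM in mAC_Mito 3, against 14.6% of all genes tested. The 16 include Aif1, Ccr2 and H2-Aa, which have few counts. These genes had enough counts to be tested only because mAC_Mito 3 was included, so their place in the 16 carries little weight. Of the 5 tested osteoclast genes, 0 were highest in mAC_Mito 3, which is too few genes to tell from the share of all genes.

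**Figure D1:**
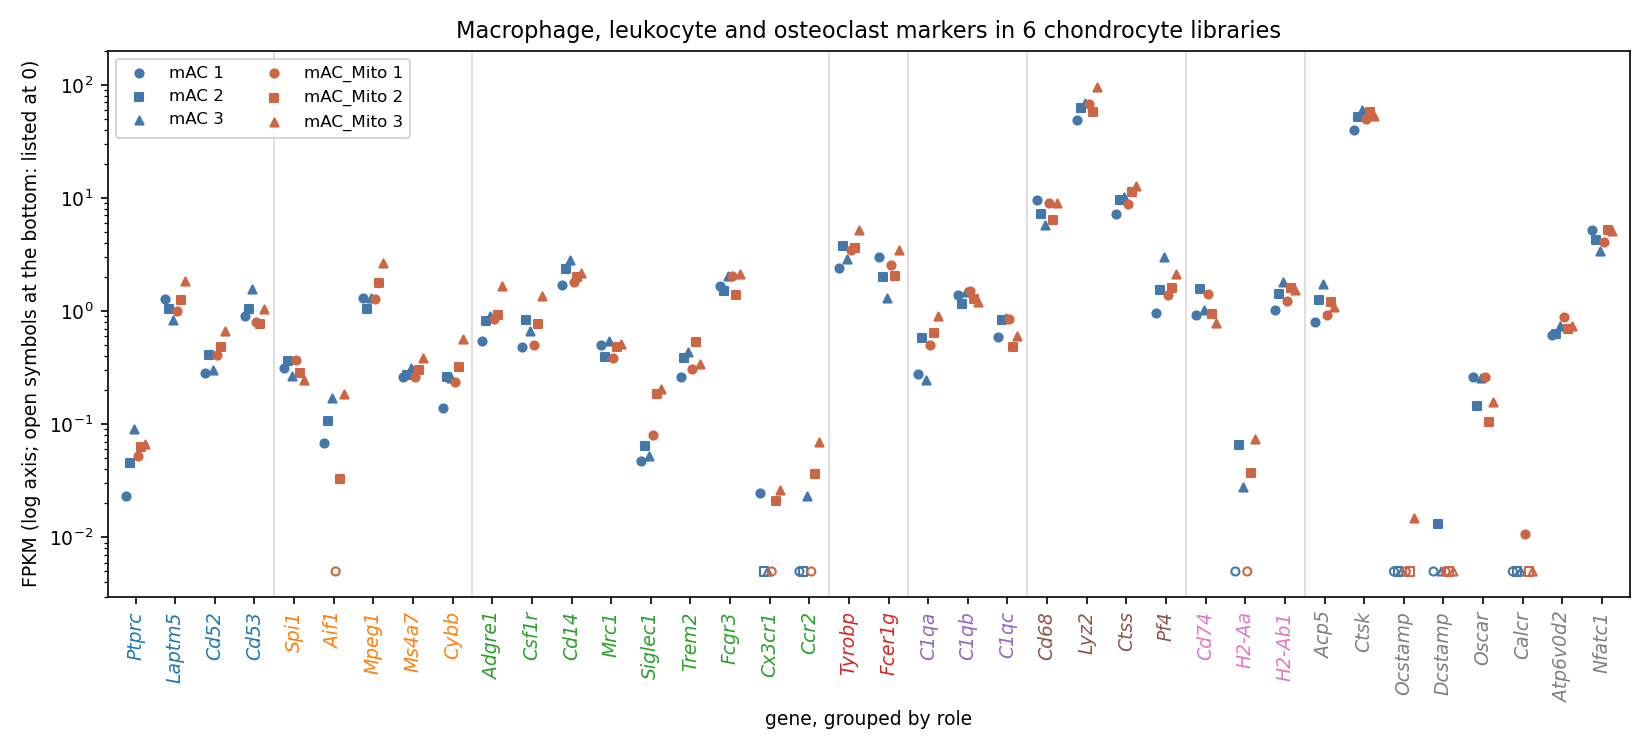
FPKM (log axis) of the 38 members with a row in each of the 6 libraries, grouped and coloured by role, blue for mAC and orange for mAC_Mito, with open symbols for values listed at 0. Lyz2 and Ctsk stand above the other members in every library, and Ocstamp, Dcstamp and Calcr are listed at 0 in 5 of 6 libraries.

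Upstream sequences are shown for 4 genes at a mean of 1 FPKM or more that peaked in mAC_Mito 3, with that of Ctsk, the abundant osteoclast gene that did not. They come from RefSeq promoters on GRCm38.p6, in which 25 of the 39 members were matched, and run 5′ to 3′ on the gene's strand up to the RefSeq start, without bases that lie inside the GENCODE M21 gene. In them, capitals mark GAGGAA or its reverse complement TTCCTC, the purine-rich core of a PU.1 site, searched on both strands. The windows are chr10:117282322-117282522 (minus strand) for Lyz2, chr3:95526536-95526785 (plus) for Ctss, chr19:12460520-12460769 (plus) for Mpeg1, chr1:171234366-171234599 (minus) for Fcer1g and chr3:95498960-95499209 (plus) for Ctsk.
Lyz2: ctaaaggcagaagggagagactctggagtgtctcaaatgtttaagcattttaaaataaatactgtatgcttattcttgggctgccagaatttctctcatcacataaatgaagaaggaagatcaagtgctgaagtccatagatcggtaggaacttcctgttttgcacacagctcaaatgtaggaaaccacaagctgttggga
Ctss: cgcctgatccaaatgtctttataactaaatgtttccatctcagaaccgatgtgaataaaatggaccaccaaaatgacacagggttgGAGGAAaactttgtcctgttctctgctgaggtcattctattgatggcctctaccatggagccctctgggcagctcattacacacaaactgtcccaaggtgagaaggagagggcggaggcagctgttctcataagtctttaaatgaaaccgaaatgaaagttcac
Mpeg1: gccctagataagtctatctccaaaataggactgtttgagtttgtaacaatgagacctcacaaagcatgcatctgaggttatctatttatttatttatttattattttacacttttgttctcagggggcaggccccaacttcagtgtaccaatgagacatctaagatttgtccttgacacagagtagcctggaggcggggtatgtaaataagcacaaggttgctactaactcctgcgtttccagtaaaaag
Fcer1g: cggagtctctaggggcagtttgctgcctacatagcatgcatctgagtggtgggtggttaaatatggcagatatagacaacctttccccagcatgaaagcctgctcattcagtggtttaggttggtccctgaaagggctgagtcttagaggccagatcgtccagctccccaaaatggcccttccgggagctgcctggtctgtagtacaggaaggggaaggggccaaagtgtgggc
Ctsk: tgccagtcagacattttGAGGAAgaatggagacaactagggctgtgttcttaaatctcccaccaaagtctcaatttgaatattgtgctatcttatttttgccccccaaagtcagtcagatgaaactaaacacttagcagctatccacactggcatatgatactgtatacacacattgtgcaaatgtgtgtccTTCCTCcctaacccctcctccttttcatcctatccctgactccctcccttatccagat
The letters occurred once in Ctss, 164 bases before the start, and at 2 places in Ctsk, 233 and 58 bases before it, and were not in the windows shown for Lyz2, Mpeg1 and Fcer1g. Laptm5, which also peaked in mAC_Mito 3, had them 38 bases before its RefSeq start, and is not printed because most of its window lies inside the GENCODE gene. Over whole windows of 250 bases, 14 of the 25 matched members (56.0%) held the motif, against 23.1% of 27025 genes. The 25 include Cd163, which has no expression values here and did not hold the motif. A match is a string of letters and not a measured binding site, and genes that peaked in mAC_Mito 3 stood both with and without it.

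The pan-leukocyte genes encode proteins shared by most blood cells. Ptprc, which encodes the leukocyte phosphatase CD45, was at 0.0231, 0.0456 and 0.0915 FPKM in the mAC libraries 1 to 3, against 0.0520, 0.0624 and 0.0663 FPKM in the mAC_Mito libraries 1 to 3, from 32 to 123 counts. The lowest and the highest library were both mAC, so the mAC_Mito values lay inside the mAC range. Its gene model is the longest of the list, 18313 bases, which lowers its FPKM, and its log2 fold change was 0.17 ± 0.42 (SE).

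Laptm5, a lysosomal membrane protein of blood cells, was at 1.29, 1.05 and 0.829 FPKM in mAC and 1.01, 1.25 and 1.84 FPKM in mAC_Mito. Cd52, a small surface glycoprotein, was at 0.284, 0.413 and 0.302 FPKM in mAC and 0.411, 0.482 and 0.670 FPKM in mAC_Mito. Both were highest in mAC_Mito 3, and the CPM of Cd52 did not overlap between the groups (0.405 to 0.584 CPM against 0.599 to 0.915 CPM), although the FPKM met at mAC 2 and mAC_Mito 1. Its log2 fold change of 0.61 ± 0.41 (SE) was nevertheless within the replicate error, and it overlaps Crybg2 on the other strand. Without mAC_Mito 3 the log2 fold change of Cd52 was 0.40. Cd53, a tetraspanin, was at 0.899, 1.05 and 1.55 FPKM in mAC and 0.808, 0.766 and 1.05 FPKM in mAC_Mito, highest in mAC 3 as Ptprc was.

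Spi1, which encodes the lineage's transcription factor, had another order of libraries. It was at 0.313, 0.361 and 0.267 FPKM in mAC and 0.372, 0.283 and 0.248 FPKM in mAC_Mito, so that mAC_Mito 3 was its lowest library. Mpeg1, which encodes the pore-forming protein perforin-2, was at 1.31, 1.03 and 1.299 FPKM in mAC and 1.27, 1.78 and 2.66 FPKM in mAC_Mito. Its log2 fold change of 0.61 ± 0.24 (SE) was 0.30 without mAC_Mito 3.

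Cybb, the membrane subunit of the phagocyte NADPH oxidase, was at 0.138, 0.259 and 0.257 FPKM in mAC and 0.236, 0.319 and 0.572 FPKM in mAC_Mito. Its log2 fold change of 0.77 ± 0.36 (SE) was 0.35 without mAC_Mito 3. Ms4a7, a membrane protein of resident macrophages, ranged only from 0.262 to 0.388 FPKM, again highest in mAC_Mito 3. Aif1, which encodes the calcium-binding protein IBA1, had 8, 14 and 19 counts in mAC and 0, 5 and 21 counts in mAC_Mito, too few to order the libraries.

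**Figure D2:**
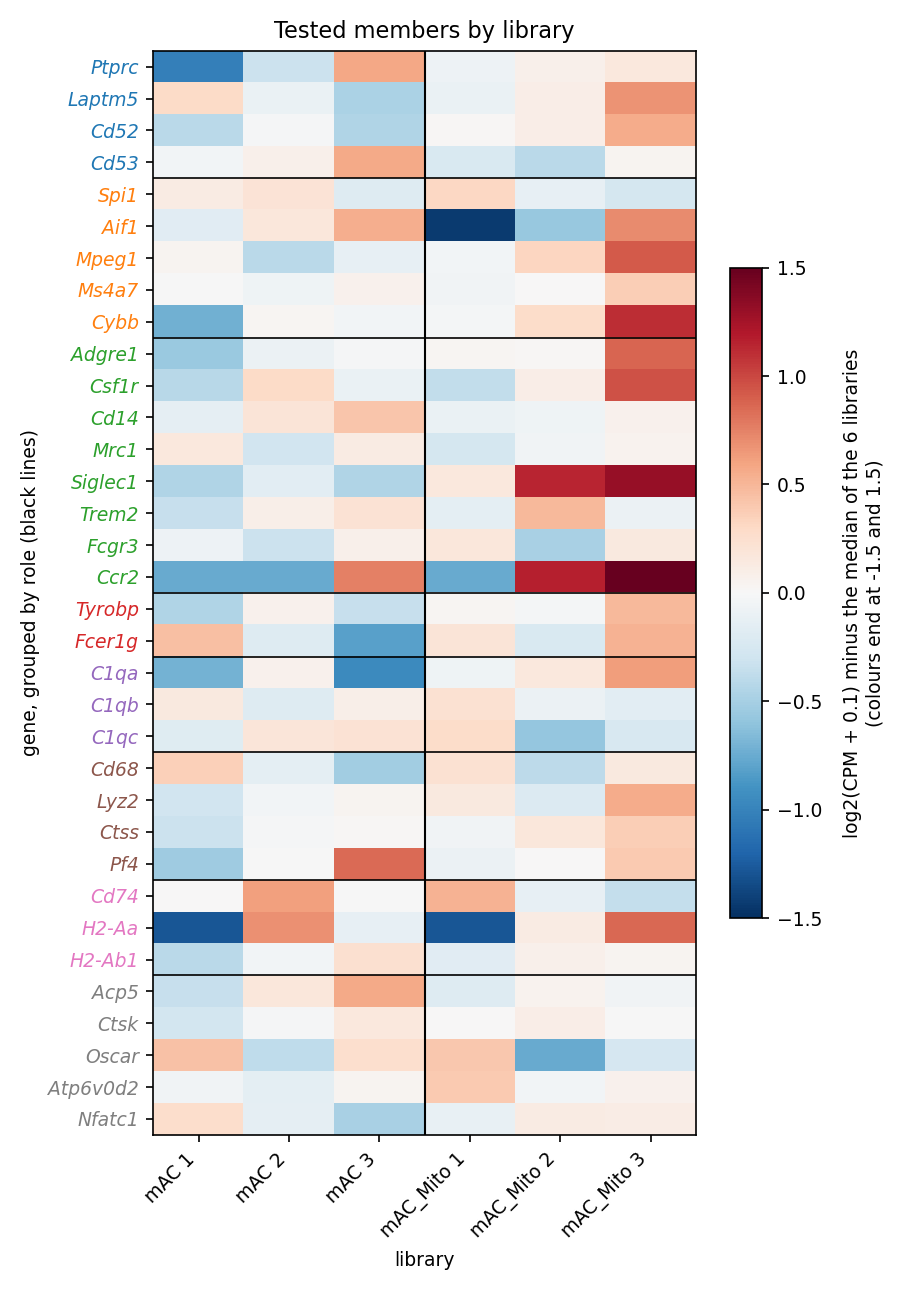
Colours give log2(CPM + 0.1) of each of the 34 tested members minus its median over the 6 libraries, with rows grouped by role and columns by library, mAC left and mAC_Mito right of the vertical line. The column of mAC_Mito 3 is red for most macrophage and leukocyte rows, with Spi1 and Cd74 among the exceptions, and near white for Ctsk and Nfatc1.

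Among the surface receptors, Adgre1 encodes F4/80, a standard marker of mouse macrophages. It was at 0.543, 0.825 and 0.898 FPKM in mAC and 0.858, 0.922 and 1.65 FPKM in mAC_Mito. The CPM of the groups did not overlap, at 2.20 to 3.24 CPM against 3.34 to 6.09 CPM, but the gap was narrow and the FPKM of mAC 3 lay above that of mAC_Mito 1. The log2 fold change was 0.58 ± 0.28 (SE), and 0.23 without mAC_Mito 3.

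Csf1r, the receptor for CSF1 and IL-34, was at 0.478, 0.843 and 0.663 FPKM in mAC and 0.505, 0.765 and 1.37 FPKM in mAC_Mito. Its log2 fold change of 0.39 ± 0.33 (SE) was -0.07 without mAC_Mito 3 and 0.64 without mAC_Mito 1. Csf1r overlaps Hmgxb3 on the other strand.

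Siglec1, the sialic acid receptor CD169 of tissue macrophages, had the largest fold change of the members with counts in all 6 libraries. It was at 0.0471, 0.0640 and 0.0525 FPKM in mAC and 0.0804, 0.184 and 0.205 FPKM in mAC_Mito, from 24 to 37 counts against 44 to 102 counts. All 3 mAC_Mito libraries lay above all 3 mAC libraries, though the exact Poisson 95% intervals of mAC_Mito 1 (0.504 to 0.931 CPM) and mAC 2 (0.380 to 0.744 CPM) overlapped. The log2 fold change was 1.47 ± 0.41 (SE) with an edgeR adjusted p of 0.99992. Leaving out 1 library at a time gave 1.23 to 1.76, with an adjusted p as low as 0.394 in edgeR, without mAC_Mito 1.

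The remaining receptors had mixed orders. Cd14, the co-receptor for lipopolysaccharide, was at 1.72, 2.35 and 2.83 FPKM in mAC and 1.82, 2.01 and 2.16 FPKM in mAC_Mito. Mrc1, the mannose receptor, stayed between 0.385 and 0.548 FPKM, and Fcgr3, a low-affinity IgG receptor, between 1.38 and 2.13 FPKM. Trem2, a lipid-sensing receptor of macrophages and osteoclast precursors, was at 0.262, 0.385 and 0.438 FPKM in mAC and 0.309, 0.532 and 0.343 FPKM in mAC_Mito. For these 4 genes the groups overlapped, and the log2 fold changes ran from -0.21 to 0.11.

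Ccr2 and Cx3cr1, chemokine receptors of monocytes and tissue macrophages, were at the edge of detection. Ccr2 had 0, 0 and 12 counts in mAC and 0, 17 and 33 counts in mAC_Mito. Cx3cr1 had 8, 0 and 0 counts in mAC and 0, 7 and 9 counts in mAC_Mito and was not tested. Each was listed at 0 in 3 of 6 libraries, and the row of Cx3cr1 spans 9 other genes of the annotation.

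Tyrobp and Fcer1g encode the membrane adaptors through which many myeloid receptors signal. Tyrobp was at 2.40, 3.77 and 2.87 FPKM in mAC and 3.49, 3.63 and 5.16 FPKM in mAC_Mito, with a log2 fold change of 0.42 ± 0.24 (SE). Fcer1g was at 2.99, 2.01 and 1.32 FPKM in mAC and 2.54, 2.04 and 3.44 FPKM in mAC_Mito, with 0.30 ± 0.35 (SE). Without mAC_Mito 3 the value was 0.23 for Tyrobp and 0.09 for Fcer1g, and Fcer1g was at 0.03 without mAC 3 and 0.69 without mAC 1. Both peaked in mAC_Mito 3, and both groups overlapped in each.

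The 3 chains of complement C1q are assembled into 1 protein and lie side by side on chromosome 4, yet their library orders differed. C1qa was at 0.279, 0.577 and 0.244 FPKM in mAC and 0.499, 0.642 and 0.900 FPKM in mAC_Mito, from 19 to 66 counts. C1qb was at 1.38, 1.15 and 1.47 FPKM in mAC and 1.499, 1.28 and 1.203 FPKM in mAC_Mito. C1qc was at 0.590, 0.829 and 0.878 FPKM in mAC and 0.847, 0.483 and 0.607 FPKM in mAC_Mito. C1qa was thus highest in mAC_Mito 3, and, by CPM, the other chains in mAC_Mito 1, with log2 fold changes of 0.84 ± 0.47, -0.02 ± 0.25 and -0.24 ± 0.30 (SE) for C1qa, C1qb and C1qc. C1qa was at 1.296 without mAC 2, and C1qc ran from -0.52 without mAC_Mito 1 to -0.05 without mAC_Mito 2.

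Genes of lysosomal and granule proteins supplied most of the summed CPM of the macrophage and leukocyte list, which does not tell which cells made the RNA. Lyz2 ranked 632 of 26969 genes by mean FPKM and made up 49.3% to 55.6% of the summed CPM of all macrophage and leukocyte members. It was at 49.0, 62.3 and 68.7 FPKM in mAC and 67.8, 57.6 and 96.4 FPKM in mAC_Mito, or 60.0 ± 10.1 against 73.9 ± 20.1 FPKM (SD, n = 3). The log2 fold change was 0.29 ± 0.18 (SE), 0.07 without mAC_Mito 3 and 0.46 without mAC_Mito 2. Reads of Lyz2 and its closely similar neighbour Lyz1 may have been divided by the counting, which is uncertain here.

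Ctss, the cathepsin of antigen-presenting cells, was at 7.17, 9.54 and 10.2 FPKM in mAC and 8.93, 11.3 and 12.7 FPKM in mAC_Mito, a log2 fold change of 0.27 ± 0.15 (SE), and 0.16 without mAC_Mito 3. Cd68, a lysosomal membrane glycoprotein, was at 9.59, 7.28 and 5.77 FPKM in mAC and 9.02, 6.33 and 8.99 FPKM in mAC_Mito. Ctss was again highest in mAC_Mito 3 and lowest in mAC 1, while Cd68 was highest in mAC 1 and lowest in mAC 3. Pf4, a platelet and macrophage chemokine, was at 0.958, 1.55 and 3.03 FPKM in mAC and 1.39, 1.61 and 2.11 FPKM in mAC_Mito, in relative terms the widest spread within mAC among these 4 genes.

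The class II genes, whose products present peptides to T cells, had no common order. Cd74, the invariant chain, was at 0.931, 1.57 and 1.02 FPKM in mAC and 1.41, 0.941 and 0.783 FPKM in mAC_Mito, lowest in mAC_Mito 3. H2-Ab1, the beta chain, was at 1.02, 1.42 and 1.80 FPKM in mAC and 1.24, 1.59 and 1.53 FPKM in mAC_Mito. H2-Aa, the alpha chain that pairs with it, had 0, 20 and 8 counts in mAC and 0, 10 and 21 counts in mAC_Mito, far fewer than the 186 to 333 counts of H2-Ab1. The log2 fold changes of Cd74 and H2-Ab1 were -0.18 ± 0.31 and 0.03 ± 0.21 (SE).

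**Figure D3:**
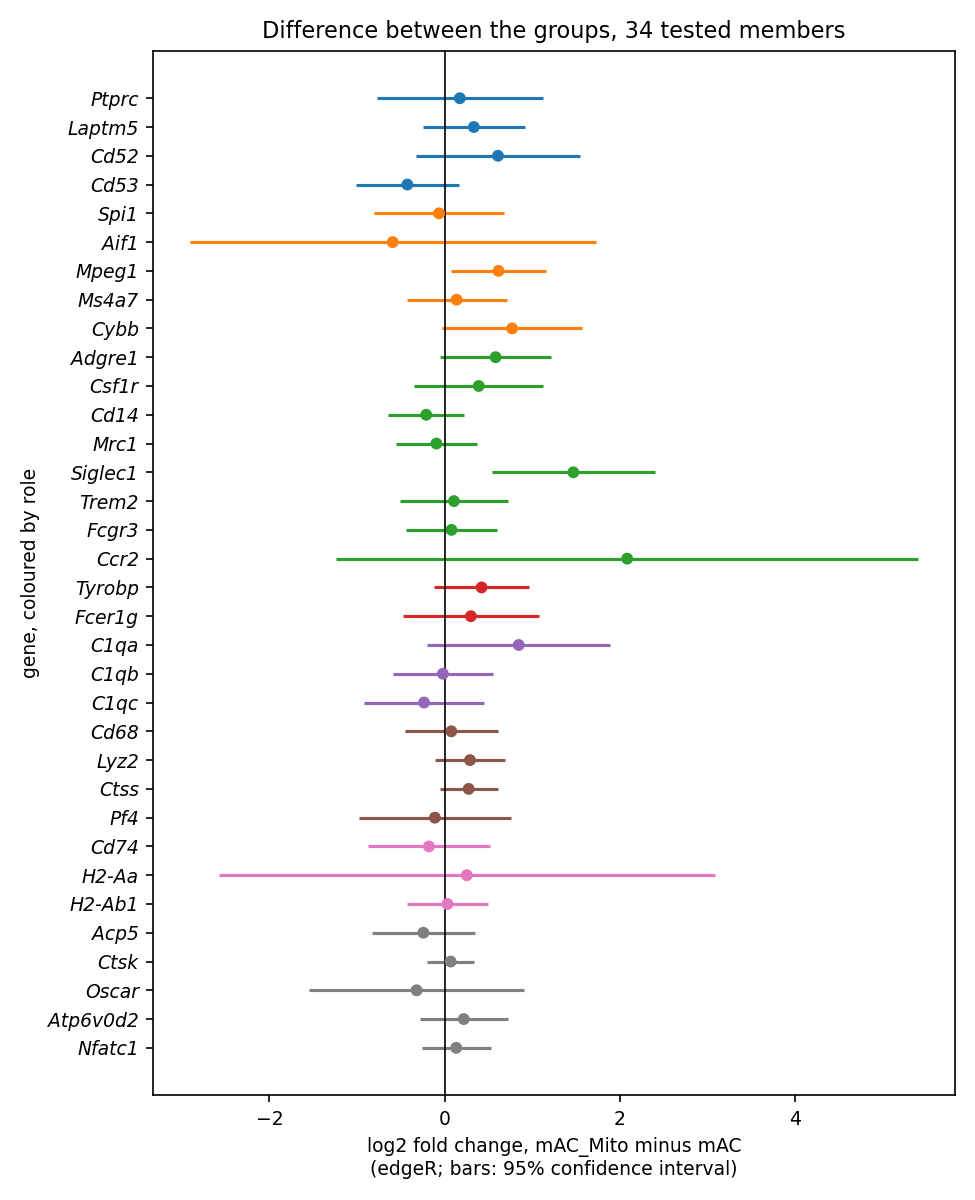
Log2 fold change (mAC_Mito minus mAC) of each of the 34 tested members with its 95% confidence interval from edgeR, coloured by role. Only the intervals of Siglec1 and Mpeg1 exclude 0 before adjustment, and Ccr2, H2-Aa and Aif1, which have few counts, have the widest intervals.

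Across the list, edgeR called 0 of 34 tested members, each with an adjusted p of 0.99992; DESeq2 also called 0, and limma on log2(FPKM + 1) called 0. Before adjustment, 2 of 34 members, Siglec1 and Mpeg1, had p under 0.05 in edgeR, against 3.19% of all genes. The number was 3 in DESeq2, 0 in limma on log2(FPKM + 1), 3 in limma on log2(FPKM + 0.1) and 4 with a replicate block. Leaving out 1 library gave 1 (without mAC_Mito 3) to 5 (without mAC_Mito 1), beside 277 of 18279 and 1225 of 18182 genes. Groups did not overlap in CPM for 3 of 34 members, Cd52, Adgre1 and Siglec1, against 8.31% of all genes. In edgeR with all 6 libraries those shares are close to the background, so these counts say nothing particular about the members. Leaving out 1 library moved the log2 fold change of 33 of the 34 by over 1.5 times, all but Siglec1. For values near 0 a small shift is enough for that, as for Ctsk, at 0.07 with all libraries and -0.04 to 0.17 without 1. The share over all genes was not computed, so the 33 say nothing particular about the members.

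The macrophage and leukocyte members were more often above 0 than below, and their median depended on mAC_Mito 3. Of 29 tested, 20 had a log2 fold change above 0 and 9 below, with a median of 0.17, beside a median of 0.00 over all genes, of which 50.4% were above 0. Without mAC_Mito 3 the median was 0.06, with 19 above 0 and 10 below. The count above 0 was lowest without mAC 1, at 17 against 12, and was 18 against 11 without mAC_Mito 1, with medians of 0.14 and 0.23. The summed CPM was 161, 178 and 185 in mAC, against 193, 171 and 260 in mAC_Mito. The log2 ratio of the group means was 0.25 with all libraries and 0.06 without mAC_Mito 3.

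The height of mAC_Mito 3 was not a matter of Lyz2 alone. Without Lyz2 the sums were 80.9, 83.3 and 84.0 CPM in mAC and 85.9, 86.8 and 116 CPM in mAC_Mito, so the other 5 libraries lay within 6 CPM of each other. At the other end, mAC 1 was the lowest library for 13 of the 29 genes (44.8%), beside 24.3% of all genes. The 13 include Ccr2 and H2-Aa, which were listed at 0 in mAC 1 and also in mAC_Mito 1. Interferon-stimulated genes moved with the same library: the summed CPM of 20 of them was 178 in mAC_Mito 3 and 115 to 130 in the other 5. Of the 20, 18 had a log2 fold change above 0, beside 50.4% of all genes tested. EdgeR called 0, and 4 had p under 0.05 before adjustment (Ifit3, Oasl2, Irf7 and, with the opposite sign, Cxcl10), beside 3.19% of all genes. Bst2, an antiviral membrane protein, was at 30.9 FPKM in mAC_Mito 3 and 14.1 to 21.2 FPKM elsewhere, and Isg15, a ubiquitin-like protein, at 12.0 FPKM and 3.45 to 7.61 FPKM. The total of mAC_Mito 3 was 61353072 counts, beside 59116068 to 68378213 over all 6 libraries. The part of the interferon-stimulated genes, or of depth, in the macrophage pattern was not tested.

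**Figure D4:**
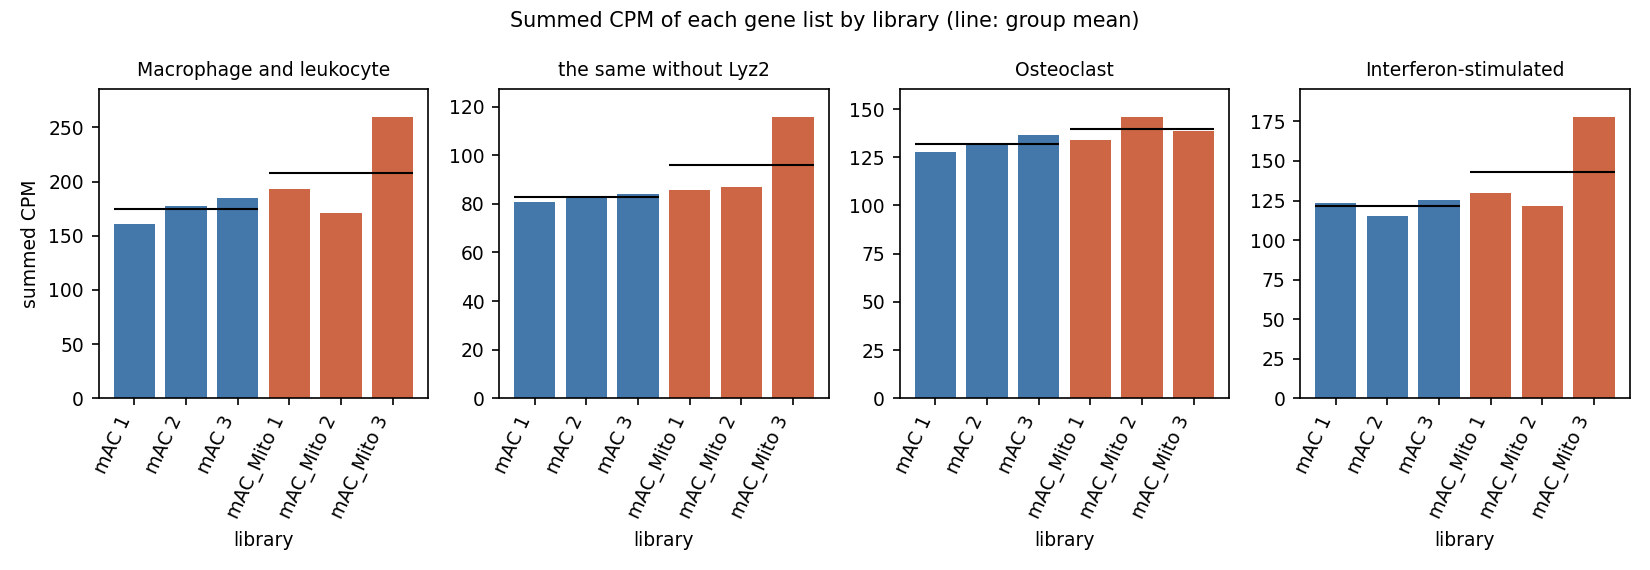
Bars give the summed CPM per library for the macrophage and leukocyte members, the same list without Lyz2, the osteoclast members and 20 interferon-stimulated genes, with a line at each group mean. The bar of mAC_Mito 3 stands above the other 5 in every panel except the osteoclast panel, where mAC_Mito 2 is highest.

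Osteoclast genes ranged from abundant members to members near 0, with Acp5, Atp6v0d2 and Oscar between them. Ctsk, the collagen-degrading cathepsin of osteoclasts, was at 39.8, 51.7 and 60.2 FPKM in mAC and 50.1, 57.7 and 52.7 FPKM in mAC_Mito, or 50.6 ± 10.2 against 53.5 ± 3.89 FPKM (SD, n = 3). Its log2 fold change of 0.07 ± 0.12 (SE) had a 95% interval of -0.20 to 0.33, the narrowest of the tested members. Ctsk and Ctss are neighbours on chromosome 3, 17423 bases apart on the same strand, and their FPKM ranges did not overlap in these libraries.

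Nfatc1, the transcription factor that starts osteoclast differentiation, was at 5.198, 4.24 and 3.42 FPKM in mAC and 4.11, 5.24 and 5.09 FPKM in mAC_Mito, with a log2 fold change of 0.13 ± 0.17 (SE). An antisense gene, AC123818.1, overlaps it. Ctsk and Nfatc1 together left little for the rest: without them the osteoclast sums were 4.74 to 6.69 CPM, against 128 to 146 CPM with them.

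Acp5, which encodes the tartrate-resistant acid phosphatase used to stain osteoclasts, was at 0.805, 1.26 and 1.72 FPKM in mAC and 0.926, 1.201 and 1.09 FPKM in mAC_Mito. Atp6v0d2, a subunit of the proton pump that acidifies the resorption space, was at 0.619, 0.623 and 0.737 FPKM in mAC and 0.885, 0.699 and 0.739 FPKM in mAC_Mito. Oscar, an osteoclast immunoreceptor, had 13 to 38 counts per library. In all 3 genes the groups overlapped, with log2 fold changes of -0.24 ± 0.26, 0.22 ± 0.22 and -0.32 ± 0.55 (SE) for Acp5, Atp6v0d2 and Oscar. Leaving out 1 library gave -0.45 to 0.01 for Acp5, 0.07 (without mAC_Mito 1) to 0.31 for Atp6v0d2, and -0.80 (without mAC_Mito 1) to -0.03 (without mAC_Mito 2) for Oscar.

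The genes most specific to mature osteoclasts were close to absent from the counts. Ocstamp had 4 counts in mAC_Mito 3, Dcstamp 4 counts in mAC 2 and Calcr, the calcitonin receptor, 4 counts in mAC_Mito 1, and each was listed at 0 in the other 5 libraries. At these counts, and with zeros listed for some genes of 15 to 25 counts, a difference between libraries was not detectable. The summed CPM of all 8 osteoclast genes was 128, 132 and 136 in mAC and 134, 146 and 139 in mAC_Mito, a log2 ratio of 0.08, and the median log2 fold change of the 5 tested was 0.07.

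By level, Lyz2 (49.0 to 96.4 FPKM) and Ctsk (39.8 to 60.2 FPKM) overlapped, and both lay above Ctss (7.17 to 12.7 FPKM) in every library. Ctss overlapped Cd68 (5.77 to 9.59 FPKM), which lay above Nfatc1 (3.42 to 5.24 FPKM), and Nfatc1 overlapped Tyrobp (2.40 to 5.16 FPKM). Below them the ranges of neighbouring members ran into each other down to the genes listed at 0.

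Of the tested genes in 11 further lists, edgeR called 0. Of 19 tested further myeloid receptors, 16 had a log2 fold change above 0 (median 0.23), beside 50.4% of all genes tested. In edgeR 4 had p under 0.05 before adjustment (Itgam, Itgax, Clec7a and Cd300a, named after their values were seen), beside 3.19% of all genes. Itgam and Itgax were highest in mAC_Mito 1, and Clec7a and Cd300a in mAC_Mito 3. The most abundant of the further receptors were Axl, a receptor for dying cells, at 37.2 FPKM, and Sirpa, an inhibitory receptor, at 8.33 FPKM, both also made outside the blood lineage. Of 24 haematopoietic signalling and oxidase genes, 16 were above 0 (median 0.15), led in level by Arhgdib at 92.1 FPKM and Cyba at 28.2 FPKM. In edgeR 0 of these 24 had p under 0.05 before adjustment. Their summed CPM was 333, 287 and 242 in mAC and 291, 237 and 269 in mAC_Mito, so mAC 1 was highest. Most of that sum was Arhgdib, at 251 CPM in mAC 1 and 160 CPM in mAC_Mito 3. Of 15 further osteoclast genes, 10 were above 0 (median 0.10), led by Jdp2 at 27.8 FPKM and Src at 9.33 FPKM. Among these 15 genes 1, Mmp9, had p under 0.05 in edgeR before adjustment, beside the same 3.19% of all genes. The summed CPM of these 15 genes was 360 in mAC_Mito 3 and 322 to 346 in the other libraries. For the most abundant genes of these lists, Arhgdib, Cyba, Jdp2 and Src, bulk RNA does not tell which cells made them.

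Of 4 growth factor genes of these lineages, Csf1 and Tnfrsf11b were abundant. Csf1, the ligand of Csf1r, was at 58.0 FPKM, against 0.771 FPKM for Csf1r, and Tnfrsf11b, which encodes the RANKL decoy osteoprotegerin, was at 53.8 FPKM, while Tnfsf11, which encodes RANKL, was at 3.50 FPKM and Il34, the other ligand of Csf1r, at 2.49 FPKM. Markers of other blood cells were near 0: the median member was at 0.0153 FPKM for 6 T, B and NK cell genes in the table, 0.0113 FPKM for 8 neutrophil and mast cell genes, 0.0306 FPKM for 4 dendritic cell genes and 0.0555 FPKM for 8 red cell and platelet genes. In those lists the genes with the highest levels were Lck (0.291 FPKM) and Zap70, Camp (0.391 FPKM) and S100a8, Zbtb46 (0.435 FPKM) and Ccr7, and Ppbp (1.68 FPKM) and Itga2b. Among 4 class II partner genes, H2-DMb1 was at 2.10 FPKM and H2-DMa at 0.719 FPKM.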

How the data were processed

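RNA was measured by poly(A) paired-end sequencing in 6 libraries, per the labels' protocols. The authors deposited 1 table with a raw read count per gene, without normalization, and an FPKM value per gene, per the file headers. Tools named in the submitters' processing notes are Bowtie 0.12.2, StringTie 1.3.0 and HISAT2 2.0, with the build mm8, but the table's coordinates are those of GRCm38: 30 of 38 members have the GENCODE M21 start and end. The counts are whole numbers, but in each library more protein-coding genes stood at 4 counts (247 to 323) than at 3 (99 to 140) or 5 (49 to 73), so low values may not be plain read counts. Use of strand in counting is not given in the sources used here. The FPKM divide by the authors' gene model length, which understates genes with long models.

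Counts were tested with edgeR 4.0.16 (quasi-likelihood, TMM, filterByExpr with minimum count 10 and minimum total 15; 17645 genes, 34 members) in R 4.3.3, two-sided, with Benjamini-Hochberg adjustment over all genes tested and a threshold of 0.05. CPM are counts scaled to a common library size after TMM, with 1000000 counts as the unit. DESeq2 1.42.0, limma 3.58.1 on log2(FPKM + 1) and log2(FPKM + 0.1), no filter, library totals, a replicate block and leaving out each library were tried as alternatives, and the sums without their most abundant member were added after seeing the data. The script was tested on simulated data. Members and further lists were chosen with earlier results of these data known. All members are accounted for, with values by library where any library has 10 counts, and from each further list the genes past the threshold and the 2 with the highest mean FPKM are named.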

Additional observations from a re-analysis of the deposited data

How the results depend on the processing

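No alternative called a member, with adjusted p from 0.394 to 1 over 34 members, 408 values in all. Over all genes the count of calls was 2 in edgeR, 4 in DESeq2, 0 with no filter on low counts, 0 in limma on log2(FPKM + 1), 1 in limma on log2(FPKM + 0.1), 2 with library totals, and 0 to 4 when 1 library was left out. Leaving out 1 library also gave a median log2 fold change of -0.039 to 0.0871 for the osteoclast members, negative without mAC 1, and 0.06 to 0.27 for the macrophage and leukocyte members. Their log2 ratio of summed CPM was 0.06 to 0.38. It was 0.22 without Lyz2, and that of the osteoclast members 0.11 without Ctsk.

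Signs held in 381 of the 408 single-gene values, and 19 of 34 members kept theirs under every alternative. With 1 library left out the log2 fold change ran from -0.45 to 0.00684 for Acp5, -0.16 to 0.0573 for C1qb, -0.11 to 0.34 for Cd68, -0.50 to 0.0636 for Cd74, -0.0729 to 0.64 for Csf1r, -0.039 to 0.17 for Ctsk, -0.0392 to 0.27 for Fcgr3, -0.77 to 1.38 for H2-Aa, -0.12 to 0.20 for H2-Ab1, -0.0165 to 0.21 for Ms4a7, -0.0364 to 0.35 for Nfatc1, -0.39 to 0.39 for Pf4, -0.15 to 0.75 for Ptprc, -0.28 to 0.0594 for Spi1 and -0.14 to 0.23 for Trem2. Pf4 was also at 0.0165 in limma on log2(FPKM + 0.1). The cause was not tested.

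The replicate numbers are shared by the groups, but the correlations did not bear out a pairing of the libraries. Over 11101 genes, deviations from the group means correlated at 0.309, -0.250 and 0.0401 for numbers 1, 2 and 3. Not every library correlated best with its own number, since mAC 3 and mAC_Mito 2 reached 0.458. With 3 libraries per group, such correlations cannot exclude shared cultures or batches. With the replicate block 2 genes and 0 members were called, and the median log2 fold change was 0.26 for macrophage and leukocyte members and 0.08 for osteoclast members. Few counts limit Aif1, Ccr2, H2-Aa, Oscar and the genes listed at 0.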
